A study of Mus musculus with 4 samples.

Results

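The enzymes and transporters that build glycosaminoglycans were examined in ATAC-Seq peak lists of mouse primary chondrocytes. They are 40 genes, taken by name, of 20280 protein-coding genes that could be placed in both genome builds used by the lists. Cho was the study's group of rib cartilage chondrocytes with no genotype in its labels, and it had 2 replicates. WT was 1 library, and E160(delta/delta);E308(delta/delta), referred to as the deletion, was 1 library. In the deletion library both copies of the Sox9 enhancers E160 and E308 were removed from the germline, on a C57BL/6J background, and its WT counterpart came from littermates. All cells were isolated from the rib cartilage of newborn mice and grown for at most 2 passages. Nothing in the labels says how many mice were pooled in a library. Setting WT beside the deletion therefore compares 1 library with 1 other and carries no p-value.

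Glycosaminoglycans are long sugar chains attached to proteoglycan core proteins, and their sulfate groups bind the water that lets cartilage resist compression. A short linker of sugars is first built on the core protein. It is then extended either to chondroitin and dermatan sulfate, the main chains of aggrecan, or to heparan sulfate, which binds growth factors such as fibroblast growth factors and hedgehog proteins. Hyaluronan is made separately, at the cell surface and without sulfate. The sulfate donor and the UDP-sugars come from a small set of precursor enzymes and transporters, and loss of several of these genes causes skeletal dysplasia.

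A promoter peak was a listed peak with its summit within 1 kb of the 5′ end of the gene, and a distal peak was one in the gene body or the 50 kb on either side with its summit over 1 kb from every protein-coding start. The 5′ end was that of the RefSeq gene for Cho replicate 2 and that of the GENCODE vM1 gene for the other lists. Levels are the deposited fold enrichment of the summit over background. Because that scale differs between lists, each promoter was also given a percentile among all called promoters of its list, 100 being the highest. The lists of Cho replicates 1 and 2 held 76242 and 148330 peaks, the WT list held 90971 and the deletion list 169591. Their background pileups were 1.368, 1.957, 0.361 and 0.626 tags. Total read counts are not in the lists, so depth enters here only through these values. The share of peaks whose summit background equalled the value of its list was 99.997%, 40.03%, 26.68% and 39.67% in the same order. Fold enrichments in Cho replicate 1 thus rest on nearly 1 common background, and those in the other lists on backgrounds that vary by site. The part of this in differences between Cho replicate 1 and the other lists was not tested. Over the E308 element the highest fold enrichments were 23.2, 30.0, 15.4 and 3.07 in the same order. Over E160 they were 11.4, 15.2 and 13.4, with no peak in the deletion. Promoters of 8 of 9 chondrocyte markers held a peak in each of the Cho replicate 2, WT and deletion lists, among them Sox9, Col2a1 and Acan. Cho replicate 1 had 4 of the 9, with none at Acan, Col9a1, Col11a2, Matn1 and Comp, and Comp had none in any list. Some promoters of markers of other cells held a peak too. Of 6 fibroblast and osteoblast markers, 3, 6, 5 and 6 had a promoter peak in the order Cho replicate 1, Cho replicate 2, WT and deletion. The counts in that order were 1, 3, 2 and 3 of 5 skeletal muscle markers, 0, 1, 0 and 1 of 5 blood markers, 2, 1, 2 and 2 of 4 endothelial markers, and 0, 2, 1 and 2 of 4 epithelial markers. Over all genes, 58.6%, 64.8%, 62.2% and 67.8% had a promoter peak in that order. The muscle, blood, endothelial and epithelial counts, and the chondrocyte count in Cho replicate 1, were below these shares. Counts of so few genes do not tell which cells were present. The part of other cells in the results was not tested.

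Some sequences are shown first, because the promoters of the set ran from among the strongest of their lists to among the weakest. They are the 250 bases upstream of the RefSeq start on GRCm38.p6, written 5′ to 3′ along the gene. The following 5 were chosen: Csgalnact2 (minus strand, chr6:118139141-118139390) and B3gat3 (plus strand, chr19:8920143-8920392), which had the highest mean percentiles, Has1 (minus strand, chr17:17855189-17855438) and Chsy1 (plus strand, chr7:66109242-66109491), which had the lowest among members with a RefSeq entry, and Papss2 (plus strand, chr19:32595465-32595714), whose start differed between annotations. Capitals mark the GC box GGGCGG, the CCAAT box CCAAT, the ETS motif CCGGAAG, the NRF1 motif CGCATGCG and the TATA box TATAAA, on either strand.
Csgalnact2: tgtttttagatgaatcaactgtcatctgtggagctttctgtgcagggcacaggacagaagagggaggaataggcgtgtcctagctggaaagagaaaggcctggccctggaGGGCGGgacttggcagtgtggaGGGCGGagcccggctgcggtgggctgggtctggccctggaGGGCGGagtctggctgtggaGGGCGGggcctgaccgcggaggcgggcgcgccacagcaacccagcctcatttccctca
B3gat3: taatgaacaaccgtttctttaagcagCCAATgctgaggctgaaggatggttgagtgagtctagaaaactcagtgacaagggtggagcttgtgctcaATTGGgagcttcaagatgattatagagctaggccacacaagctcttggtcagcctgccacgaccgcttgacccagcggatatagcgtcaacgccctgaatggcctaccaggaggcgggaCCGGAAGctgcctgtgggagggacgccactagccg
Has1: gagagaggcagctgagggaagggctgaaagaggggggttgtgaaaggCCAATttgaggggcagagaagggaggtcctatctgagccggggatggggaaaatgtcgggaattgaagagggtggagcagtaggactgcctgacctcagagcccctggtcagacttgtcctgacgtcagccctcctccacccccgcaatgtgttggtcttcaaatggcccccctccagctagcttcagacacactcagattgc
Chsy1: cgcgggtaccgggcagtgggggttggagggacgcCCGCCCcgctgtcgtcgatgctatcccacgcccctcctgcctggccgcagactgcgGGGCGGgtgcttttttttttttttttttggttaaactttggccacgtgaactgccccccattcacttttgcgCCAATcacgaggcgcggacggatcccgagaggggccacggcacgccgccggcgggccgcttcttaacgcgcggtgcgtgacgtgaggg
Papss2: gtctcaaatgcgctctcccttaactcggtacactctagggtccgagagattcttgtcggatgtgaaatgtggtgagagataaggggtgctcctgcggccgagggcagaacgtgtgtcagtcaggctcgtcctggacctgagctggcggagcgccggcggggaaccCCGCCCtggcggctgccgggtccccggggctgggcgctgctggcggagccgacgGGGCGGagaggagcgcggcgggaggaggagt

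The upstream window shown for Csgalnact2 held 4 GC boxes, that of B3gat3 held 2 CCAAT boxes and 1 ETS motif, and that of Has1 held 1 CCAAT box and no GC box. Chsy1 held 2 GC boxes and 1 CCAAT box, and Papss2 held 2 GC boxes. Csgalnact2 and Papss2 each had another RefSeq window, not shown, without a GC box. That of Papss2 held 2 CCAAT boxes. RefSeq windows were found for 31 members, with 38 windows in all. Xylt1, Csgalnact1, Chsy3, Ext1, Extl3, Ndst1, Slc26a2, Has2 and Has3 had none. Of the 38 windows, 24 held a GC box (63.2%, 95% exact interval 46.0 to 78.2), against 44.4% of 19932 windows of all genes. A CCAAT box was in 16 (42.1%, against 35.4%), an ETS motif in 3 (7.89%, against 9.30%) and an NRF1 motif in 1 (2.63%, against 2.14%). A TATA box was in 1, that of Hs6st2 (2.63%, against 11.3%). The intervals cover counting error only, and windows of 1 gene can overlap. Median GC content was 64.6% in members and 56.0% over all windows, and the median ratio of observed to expected CpG was 0.701 against 0.558. An exact match is a description of these letters and not a bound site.

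Strong distal peaks were likewise read from NCBIM37 (mm9), as the 200 bases around the WT summit, plus strand. The 6 strongest in loci of members with a RefSeq entry are shown, and all 6 were also listed in the deletion and in Cho replicate 1. They lay near Extl2 (chr3:115672168-115672367, in an intron of Slc30a7), Hs2st1 (chr3:144043987-144044186), Hs6st1 (chr1:36087324-36087523), B3galt6 (chr4:155405753-155405952), Dse (chr10:33938100-33938299) and Chsy1 (chr7:73344278-73344477), the last 5 between genes. Capitals mark the SOX motifs ACAAAG and ACAATG, the AP-1 motif TGANTCA, the RUNX motif AACCACA, the PAR bZIP motif TTACGTAA and the CTCF core CCANNAGG, on either strand.
Extl2 distal: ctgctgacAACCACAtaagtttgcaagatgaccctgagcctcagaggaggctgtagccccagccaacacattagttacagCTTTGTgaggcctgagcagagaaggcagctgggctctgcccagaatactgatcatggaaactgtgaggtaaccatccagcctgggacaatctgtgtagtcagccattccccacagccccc
Hs2st1 distal: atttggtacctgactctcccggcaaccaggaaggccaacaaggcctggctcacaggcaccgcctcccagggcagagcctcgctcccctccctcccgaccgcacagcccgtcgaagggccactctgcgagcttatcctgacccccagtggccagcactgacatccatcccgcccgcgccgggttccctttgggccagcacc
Hs6st1 distal: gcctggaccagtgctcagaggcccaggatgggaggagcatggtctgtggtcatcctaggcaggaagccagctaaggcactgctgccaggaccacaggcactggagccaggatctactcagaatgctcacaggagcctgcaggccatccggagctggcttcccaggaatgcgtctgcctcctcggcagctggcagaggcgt
B3galt6 distal: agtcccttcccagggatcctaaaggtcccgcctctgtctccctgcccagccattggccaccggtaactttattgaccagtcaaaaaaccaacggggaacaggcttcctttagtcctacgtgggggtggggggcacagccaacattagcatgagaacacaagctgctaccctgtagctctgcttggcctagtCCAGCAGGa
Dse distal: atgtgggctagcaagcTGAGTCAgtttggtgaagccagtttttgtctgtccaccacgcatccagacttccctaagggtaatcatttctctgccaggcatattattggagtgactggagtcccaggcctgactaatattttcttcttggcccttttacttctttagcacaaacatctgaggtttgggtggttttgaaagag
Chsy1 distal: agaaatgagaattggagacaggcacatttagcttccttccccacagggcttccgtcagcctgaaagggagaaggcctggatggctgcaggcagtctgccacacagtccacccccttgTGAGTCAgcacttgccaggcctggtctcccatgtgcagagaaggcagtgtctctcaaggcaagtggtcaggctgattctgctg

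The Extl2 peak held 1 ACAAAG and 1 AACCACA, the Dse and Chsy1 peaks held 1 TGANTCA each, the B3galt6 peak held 1 CCANNAGG, and the Hs2st1 and Hs6st1 peaks held none of the 6 motifs. Over all 409 distal WT peaks of the member loci, ACAAAG was in 58 (14.2%), against 13.2% of 69156 distal WT peaks in the genome. ACAATG was in 35 (8.56%, against 7.47%), TGANTCA in 83 (20.3%, against 23.6%), AACCACA in 32 (7.82%, against 9.52%) and CCANNAGG in 73 (17.8%, against 19.9%). TTACGTAA was in none, which allows up to 0.898% by the exact interval, against 0.0694% in the genome. All 6 genome values lay within the exact 95% intervals of the member values. The median GC content was 49.5% in both sets.

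The promoters of nearly all members were open. At the 5′ end of the gene, 34 of 40 members had a promoter peak in Cho replicate 1 (all genes 58.6%) and 35 in Cho replicate 2 (64.8%), while WT had 36 (62.2%) and the deletion 36 (67.8%). In all 4 lists, 30 members had one (75%, exact interval 58.8 to 87.3), against 52.6% of all genes. Some of the gaps closed when other annotated starts were used. When any RefSeq start placed in mm9 by its sequence was also allowed, 38 members had a peak in Cho replicate 1 (61.7%) and 38 in Cho replicate 2 (69.3%). All 40 had one in the WT list (65.2%), all 40 in that of the deletion (70.6%), and 36 had one in every list (58.6%). This setting was chosen after the values were seen. At B3galt6, Chpf, Extl2 and Hs2st1 a gene on the opposite strand started 56 to 194 bp away. Their promoter peaks are thus not tied to the member alone. An opposite start within 1 kb was found for 10% of members and 10.9% of all genes.

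In Cho replicate 1, WT and the deletion, the members gained were Glce, Papss2, Extl1 and Ndst2, whose mm9 gene model began kilobases from the RefSeq start. For Glce, the epimerase of heparan sulfate, the RefSeq start lay 52.0 kb from the mm9 5′ end, and the values there were 21.5 in both Cho replicates, 15.9 for WT and 14.9 for the deletion. For Papss2, which makes the sulfate donor PAPS, the start lay 24.3 kb away at most, with 11.4, 10.3, 11.7 and 11.7. Extl1, a glycosyltransferase related to the heparan polymerase (11.3 kb), had 4.65, 17.0, 14.2 and 13.8. Ndst2, an N-deacetylase/N-sulfotransferase (4.02 kb), had 14.4, 24.0, 15.1 and 14.3. These 4 promoters were therefore open in every list, at a start other than the 5′ end of the mm9 gene. For Extl1, a peak in each of the mm9 lists also lay within 1 kb of the start of another annotated mm9 transcript.

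Other members lacked a peak at the 5′ end in 1 list, or in both Cho lists for Chst3. Chst3, a chondroitin 6-O-sulfotransferase, had no promoter peak in Cho replicate 1. It had 8.78 in Cho replicate 2 at its RefSeq start matched by sequence, 8.16 in WT and 8.54 in the deletion. Ndst1 had none in Cho replicate 1, and had 3.42, 4.76 and 3.71 in the others, among the lowest promoter values of each list. The Ndst1 summit in Cho replicate 2 lay at -973 bp from the RefSeq 5′ end, negative being upstream. Those in WT and the deletion lay at 864 and 810 bp from the mm9 5′ end, which is another annotation. A window of 500 bp left no Ndst1 peak in Cho replicate 2 and WT. No RefSeq start was matched in mm9 by sequence, so that the level at another start is not known. Chst15, which adds a further sulfate to chondroitin 4-sulfate, had none in Cho replicate 2, and had 8.87 in Cho replicate 1, 5.26 for WT and 6.20 for the deletion. Has1 had none in Cho replicate 2, and 5.49, 5.07 and 5.78 elsewhere. Dse, the dermatan sulfate epimerase, had 22.8, 14.2, 10.4 and 9.98, and Slc35d1, a UDP-sugar transporter, had 6.76, 6.11, 8.54 and 9.24. In both, as in Chst3, the Cho replicate 2 value was only at a matched RefSeq start other than the gene's 5′ end. These were the 3 members gained in that list.

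**Figure D1:**
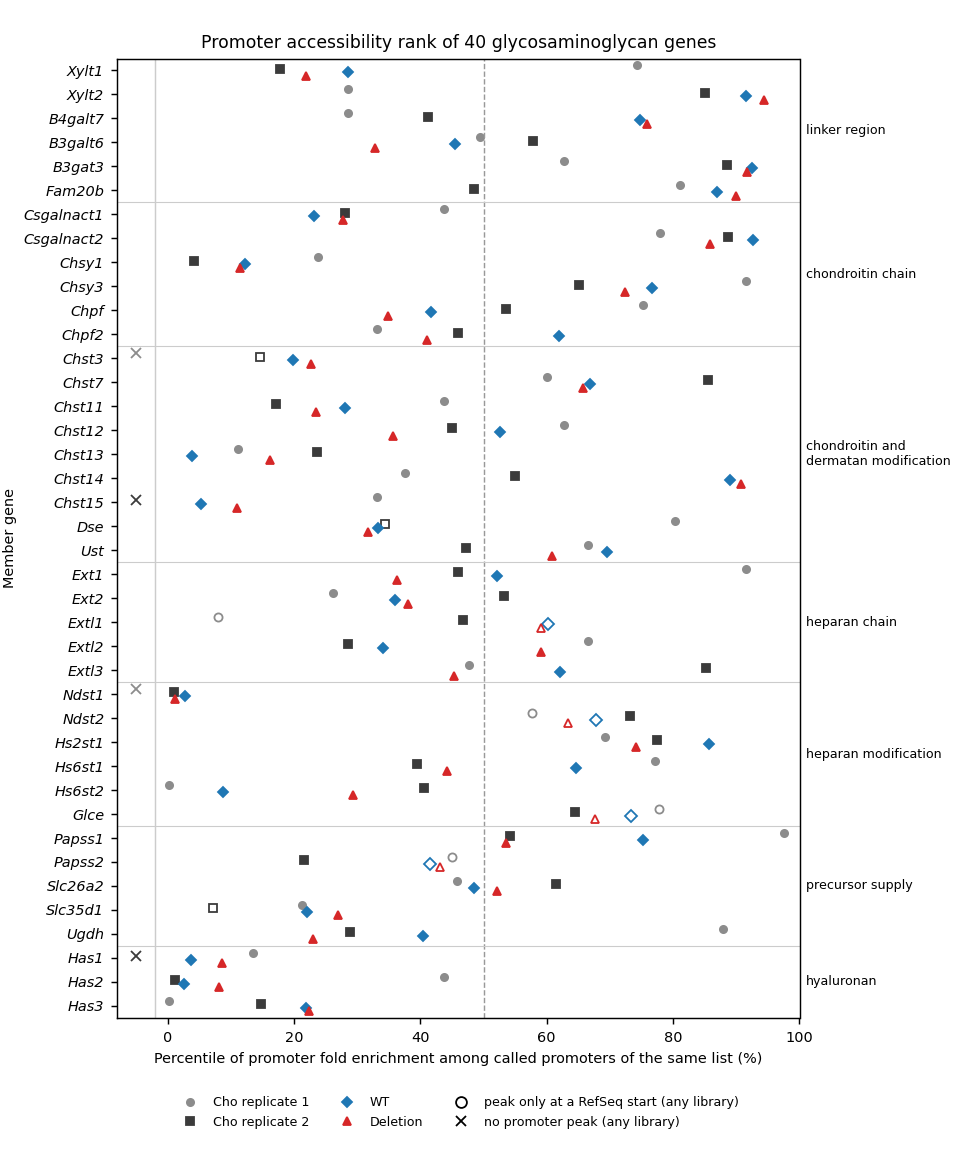
Percentile of promoter fold enrichment (x axis, %) for each of the 40 members (y axis, by role) in the 4 lists. Filled symbols are peaks at the 5′ end of the gene, and open symbols are peaks found only at a RefSeq start matched by sequence. Crosses at the left mean no promoter peak, and the dashed line is the middle of each list. Csgalnact2 and B3gat3 sit above 60 in every list, while the WT and deletion values of the 3 hyaluronan synthases sit below 25.

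By fold enrichment, linker enzymes had some of the highest promoter ranks in WT and the deletion. Summit pileup could order promoters otherwise. In WT, Xylt2 had 35 tags at percentile 91.5, while the precursor gene Ugdh had 53 tags at percentile 40.5. The median percentiles of the 6 were 56.1 and 53.1 in the Cho replicates, 80.9 in WT and 82.9 in the deletion. B3gat3, which adds the glucuronic acid that completes the linker, had fold enrichments of 15.6, 29.6, 19.6 and 19.2 in the same order of lists, which is used from here on. Fam20b, the xylose kinase, had 23.2, 17.4, 18.2 and 18.7. The xylosyltransferases, which attach the first sugar, differed: Xylt2 had 8.02, 28.0, 19.3 and 20.1, and Xylt1 had 19.8, 9.16, 9.71 and 8.40. Xylt2 was above Xylt1 in 3 lists and below it in Cho replicate 1. There the Xylt1 summit lay at -778 bp from the 5′ end, against 22, -9 and -3 bp in the other lists, so its value is from another site. The galactosyltransferases B4galt7 and B3galt6 had WT values of 16.1 and 12.2.

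Among the 6 genes of chondroitin chain synthesis, the median percentiles were 59.5, 49.8, 51.8 and 37.9. Csgalnact2, an enzyme that starts the chondroitin chain, had the highest mean percentile of all members, 86.3, with fold enrichments of 21.5, 29.6, 19.6 and 17.8. Its paralogue Csgalnact1 had 11.0, 12.1, 8.77 and 9.36, lower in every list. Chsy3, a chondroitin synthase, had 32.1, 21.7, 16.4 and 15.5. Chsy1, the synthase known for its part in cartilage, had 7.18, 4.76, 6.66 and 6.33, with a mean percentile of 12.9. Chsy3 was thus above Chsy1 in all 4 lists, and the ranges did not overlap. The chain partners Chpf and Chpf2 lay between, at 11.6 and 14.3 in WT.

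The 9 chondroitin and dermatan modification genes had median percentiles of 51.9, 46.2, 33.2 and 31.8. Chst14, the dermatan 4-O-sulfotransferase, had 9.71, 19.0, 18.6 and 18.9. Chst13, a chondroitin 4-O-sulfotransferase, had 5.07, 10.8, 5.09 and 7.38, on summit pileups of only 6 tags in WT and 11 in the deletion. Chst11, the main chondroitin 4-O-sulfotransferase of cartilage, had 11.0, 9.04, 9.62 and 8.62, and so stood below the middle of every list. Chst7, Chst12 and Ust, a uronyl 2-O-sulfotransferase, had WT values of 15.0, 13.1 and 15.3.

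The heparan genes covered most of the range. Hs2st1, the 2-O-sulfotransferase, had 17.7, 25.3, 17.9 and 15.7 and a mean percentile of 76.6. Ndst1, which begins sulfation of the chain, had the lowest mean percentile of all members, 1.63 over 3 lists. This was at the gene's 5′ end in each build, and no RefSeq start was matched by sequence. By contrast, Ndst2 at its RefSeq start lay between the percentiles 57.7 and 72.9. Of the polymerase subunits, Ext1 had 32.1, 16.7, 13.0 and 10.6 and Ext2 had 7.60, 18.5, 10.8 and 10.9. Extl2, Extl3 and Hs6st1 had WT values of 10.6, 14.3 and 14.7. Hs6st2 had 2.96, 15.4, 5.96 and 9.64.

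Of the precursor genes, Papss1 had the highest promoter value of any member in Cho replicate 1, 46.9, with 18.7, 16.2 and 12.9 in the other lists. Divided by the background of the list, its summit pileups were 80.4, 183, 147 and 95.8, lowest in Cho replicate 1. Ugdh, which makes UDP-glucuronic acid, had 28.3, 12.3, 11.5 and 8.60. Slc26a2, the sulfate transporter mutated in diastrophic dysplasia, had 11.4, 20.6, 12.5 and 12.8. The hyaluronan synthases were at the low end, with median percentiles of 13.6, 7.99, 3.78 and 8.69, although Ndst1, Chsy1 and Chst13 had lower mean percentiles than Has2 and Has3. Has2, the main synthase of developing limbs, had 11.0, 3.57, 4.70 and 5.64, and stood at percentile 43.8 in Cho replicate 1. Has3 had 2.96, 8.24, 8.51 and 8.46, with summits 564 to 642 bp from its 5′ end and no RefSeq start matched by sequence. Over the 30 members called in both Cho lists, the mean percentile of the Cho replicates had a median of 53.8. The SD of a member's 2 percentiles had a median of 18.2 and reached 41.8 for Ugdh, so that ranks closer than this were not separated by the Cho replicates. The nearly common background of Cho replicate 1, unlike that of Cho replicate 2, enters this SD, and its part was not tested.

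Other genes of the pathway were counted in the same way, from lists by role. Of 11 further heparan modification genes, 8 had a WT promoter peak and 9 one in the deletion. For 7 further chondroitin and keratan genes the counts were 5 and 6, and for 10 further precursor genes 9 and 9. Over all genes, 62.2% had a promoter peak in WT and 67.8% in the deletion. Of 14 genes for glycosaminoglycan breakdown, all 14 had a promoter peak in each of the 4 lists, against 52.6% of all genes. Their median percentiles were 45.7, 73.0, 74.4 and 74.6, against 48.6, 46.8, 43.6 and 36.0 for the members called. The Sgsh promoter, of a lysosomal sulfatase, had 7.60, 23.3, 19.2 and 16.1, and Hexa, a hexosaminidase subunit, had 5.49, 6.85, 9.39 and 9.71. None of the genes in these 4 lists differed by 2-fold between WT and the deletion, and Hs3st5 came nearest with 6.03 and 11.98.

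No member promoter differed by 2-fold between WT and the deletion. For 36 members called in both, the median log2 ratio of deletion to WT fold enrichment was -0.05, against 0.01 over 12565 promoters of all genes. The member ratios ran from -0.41 to 0.69, with 14 above 0 and 22 below. None was at least 2-fold higher in the deletion, where 1.05% of all promoters were, and none at least 2-fold lower, where 0.0716% were. With members at any start, 40 could be compared, with the same median and still none past 2-fold.

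The 3 largest ratios upwards were those of Hs6st2 (0.69), Chst13 (0.53) and Extl2 (0.37, from 10.6 to 13.7). The first 2 rested on 9 and 6 tags in WT. The 3 largest downwards were those of Ugdh (-0.41), Ndst1 (-0.36) and Chpf2 (-0.34, from 14.3 to 11.3). Counting error was wide beside these differences. When summit pileups were divided by the background of their list, the ratio was 1.35 for Hs6st2 (95% exact interval 0.59 to 3.34), 1.06 for Chst13 (0.36 to 3.48) and 0.71 for Ugdh (0.48 to 1.04). Papss1, with 0.65 (0.44 to 0.96), was the 1 member of 36 whose interval did not hold 1. By this measure the median log2 ratio was -0.23 in members and -0.26 over all promoters, so Papss1 is read against a shift of the whole list. At Chst15, Slc35d1 and Has1 the WT and deletion peaks did not overlap each other.

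**Figure D2:**
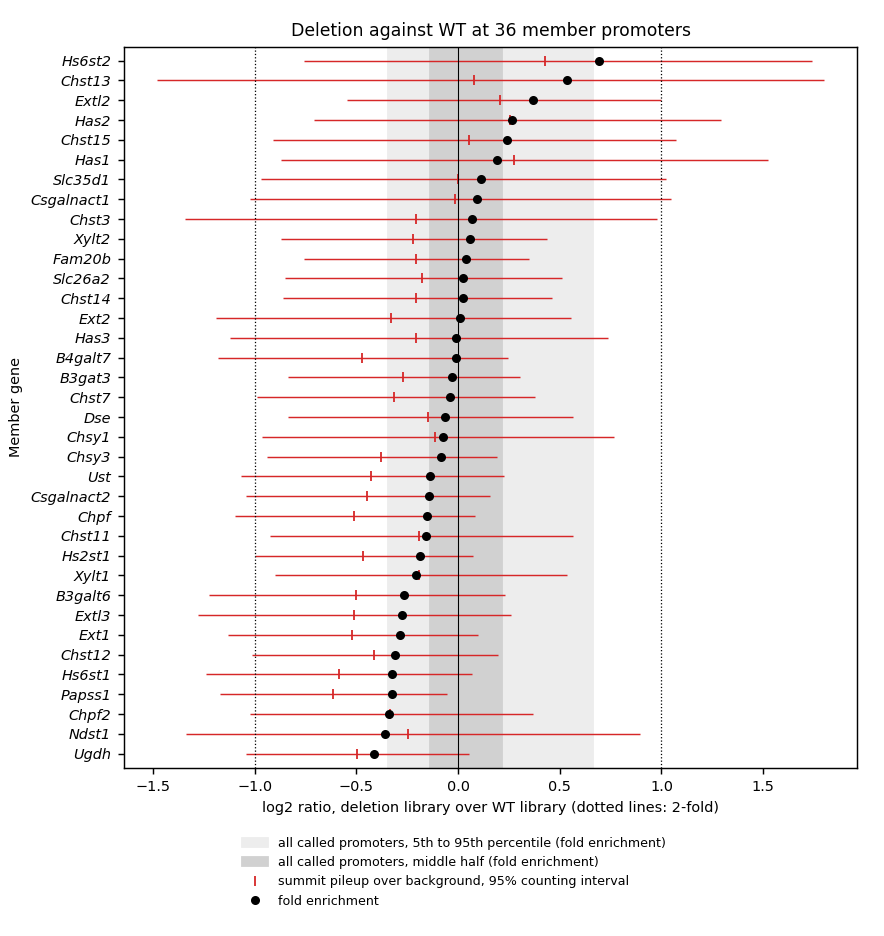
log2 ratio of the deletion library over the WT library (x axis) for 36 member promoters (y axis, ordered by the fold enrichment ratio). Black points are fold enrichment, red ticks with lines are the ratio of summit pileups over background with 95% exact counting intervals, and grey bands are the spread of the fold enrichment ratio over all called promoters. Every black point lies between the dotted 2-fold lines, and the red lines of 35 members cross 0.

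The loci of the members were rich in distal peaks. They held 341 and 872 in the Cho replicates, 409 in the WT list and 777 in the deletion list. The median member had 4.41, 10.9, 5.53 and 10.5 distal peaks per 100 kb, against 2.31, 6.58, 3.20 and 6.71 over all genes. Above the median density of all genes lay 31, 32, 32 and 32 of the 40 members, where 50% of all genes do. Of the 409 WT peaks, 203 lay in an intron of the member (49.6%), 64 in an intron of another gene, 133 between genes and 9 in exons, 5 of these of the member. No peak is tied to a gene by these data, and a window can hold regulatory sequence of its neighbours.

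Ndst1 had the densest locus in WT. It held 23, 45, 24 and 34 distal peaks in a window of 163 kb, and its WT density of 14.8 per 100 kb was at percentile 99.6 of all genes. Hs2st1 had 22 WT peaks (9.20 per 100 kb), Chsy1 had 15 (9.13), Chst12 had 10 (8.32) and Chst11 had 25 (8.05). At the other end, Xylt2 and B3gat3 had 1 WT distal peak each, Extl1 had 2, and Chst7, Chst13, B4galt7 and B3galt6 had 3 each. By role, the median WT density percentile was 44.9 for the linker genes and 85.9 for chondroitin and dermatan modification, with the other roles between. The linker genes were mixed, since Xylt1 and Fam20b were at percentiles 87.9 and 86.2 of all genes for WT density. Over the summed windows of each role, the linker genes had 4.89 WT peaks per 100 kb and the heparan chain genes, the lowest, 4.68.

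**Figure D3:**
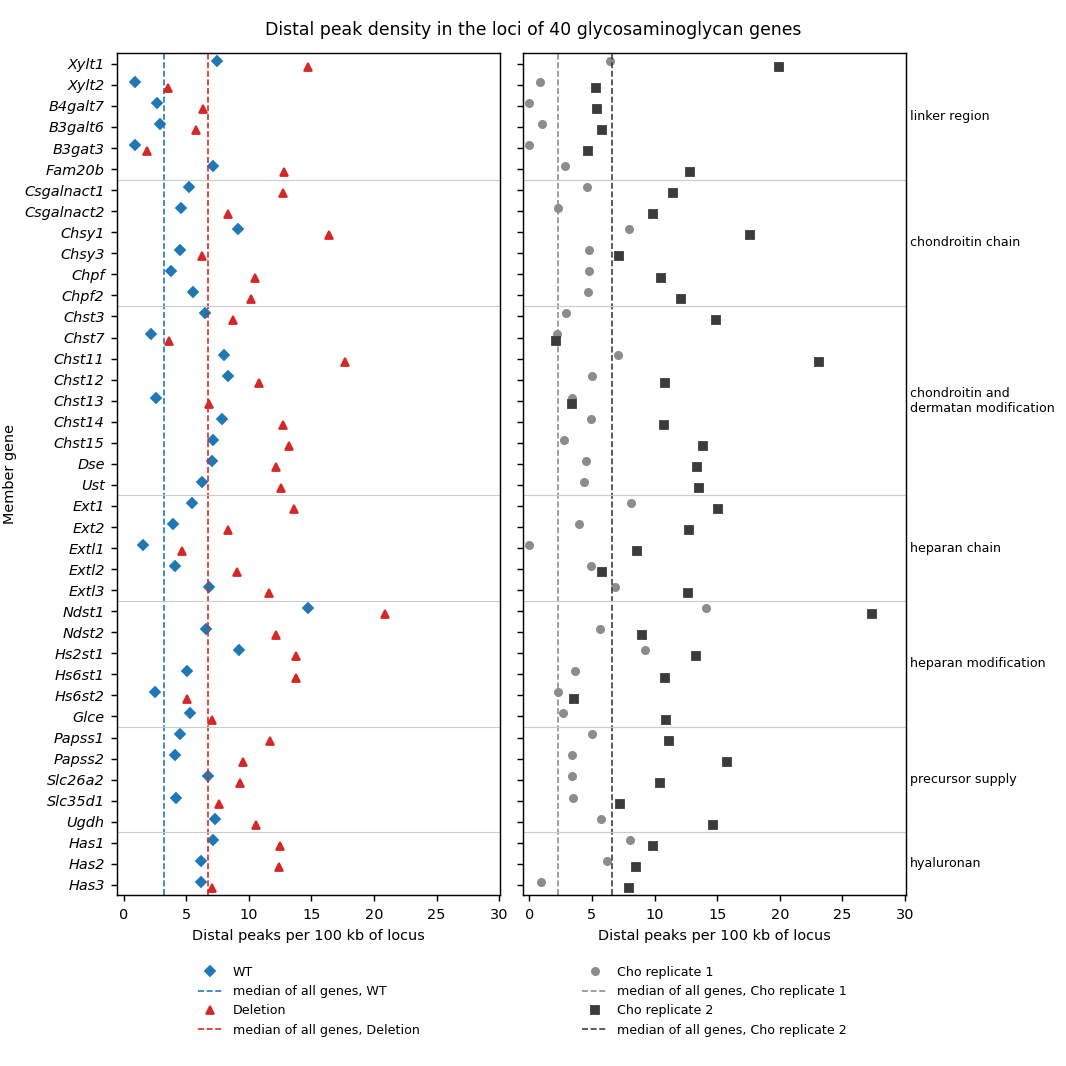
Distal peaks per 100 kb of locus (x axes) for each of the 40 members (y axis, by role), in WT and the deletion (left) and in the Cho replicates (right), with the median of all genes of each list as a dashed line. Ndst1 stands highest in WT at 14.8 per 100 kb, and 32 of 40 members lie to the right of the WT line.

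In many member loci the strongest peak was not at the promoter. The highest distal peak had a larger fold enrichment than the promoter peak in 22 of 36 members in WT (61.1%, against 44.4% of all genes with a promoter peak). The counts were 28 of 36 in the deletion (all genes 61.8%), 19 of 34 in Cho replicate 1 (46.1%) and 29 of 35 in Cho replicate 2 (64.4%). A longer or denser window gives more chances of a high peak, and this was not adjusted for. All 3 hyaluronan synthases were among the 22 in WT. At Has2 the promoter had 4.70 in WT and 5.64 in the deletion, and an intronic peak 2.15 kb into the gene had 14.0 and 12.4. The Cho replicate 1 interval over that peak had 31.7 against 11.0 at the promoter, and it also spanned 2 smaller WT peaks. Chst15 had the same layout, with 5.26 in WT and 6.20 in the deletion at the 5′ end and 13.5 and 12.1 at an intronic peak 1.64 kb in. That Chst15 peak was also listed in Cho replicate 1 at 11.8 and in Cho replicate 2 at 16.5. At Ndst1 a peak 7.79 kb upstream had 16.1 in WT, 12.7 in the deletion and 19.4 in Cho replicate 1, against promoter values below 5.

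**Figure D4:**
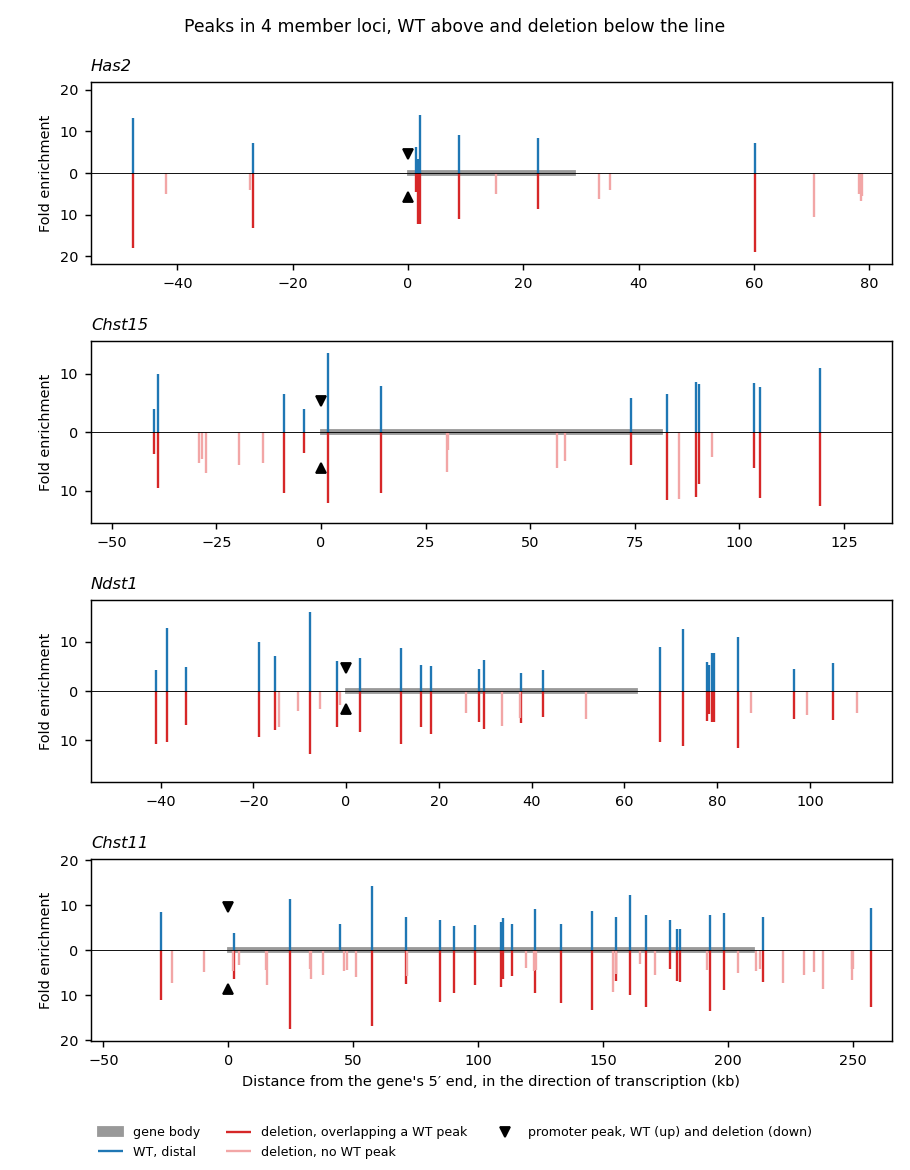
Fold enrichment (y axes) of peaks by distance from the 5′ end (x axes, kb) at Has2, Chst15, Ndst1 and Chst11, with WT drawn upwards and the deletion downwards. Dark red lines are deletion peaks that overlap a WT peak, drawn at each WT summit they overlap, pale lines are those that do not, and triangles are promoter peaks. At Has2 and Chst15 a line just inside the gene reaches 14.0 and 13.5 in WT, above the promoter triangles at 4.70 and 5.26.

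The strongest distal peaks of the member loci were found in several lists. The WT peak 38.1 kb upstream of Extl2, in an intron of the neighbouring zinc transporter gene Slc30a7, had fold enrichments of 5.49, 25.3, 19.3 and 15.3. An intronic peak of Chsy3, 125.6 kb from its start, had 15.6 in Cho replicate 1, with 19.1 for WT and 23.9 for the deletion. A peak 189.1 kb downstream of the Hs2st1 start had 12.2, 32.2, 18.6 and 18.8, and a peak 37.8 kb upstream of Hs6st1 had 22.4, 30.5, 17.96 and 19.4. These were near the highest values of any member promoter in WT, 19.6. The peak 39.1 kb upstream of B3galt6 had 12.2, 16.8, 16.8 and 14.0, that 10.8 kb upstream of Dse had 24.9, 20.6, 16.8 and 18.6, and that 90.0 kb downstream of the Chsy1 start had 8.87, 21.8, 16.3 and 17.0. With the upstream Ndst1 peak, these were the 8 of highest WT value, and all 8 were listed in the deletion and in Cho replicate 1.

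WT distal peaks were nearly all listed in the deletion. Of 409, 395 were overlapped by a deletion peak (96.6%, exact interval 94.3 to 98.1), against 95.2% of all distal WT peaks, so the member share was close to the background. The 14 that were not had a highest WT value of 7.35 and lay in 11 loci. A Cho replicate 1 peak overlapped 217 (53.1%, against 49.2%). For 31 members with a start matched by sequence, Cho replicate 2 could be compared by distance from that start, and 208 of 262 WT distal peaks had a Cho replicate 2 peak within 150 bp (79.4%). Of the 262, 111 were listed in all 4 libraries.

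The deletion list had many distal peaks that WT lacked, here as elsewhere. They were 392 of 777 (50.5%), against 54.4% of all distal deletion peaks. The deletion list was also the longest of the 4, and the part of its length in this count was not tested. Of the 392, 81 had a Cho replicate 1 peak (20.7%, against 24.8% of all distal deletion peaks without a WT peak). The 5 of highest deletion value were an intronic peak of Csgalnact1, 258.6 kb from its start, with 14.1, peaks 40.8 kb (12.9) and 11.5 kb (11.8) downstream of the B4galt7 start, and peaks 14.5 kb upstream (12.9) and 126.6 kb downstream (11.6) of the Papss1 start. Both B4galt7 peaks were listed in Cho replicate 2, at 15.6 and 9.47, and not in Cho replicate 1. Both Papss1 peaks were listed in Cho replicate 1, at 5.91 and 3.80, and in Cho replicate 2, at 5.75 and 18.8. Of these 5 peaks, 4 were thus listed in at least 1 Cho replicate.

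**Figure D5:**
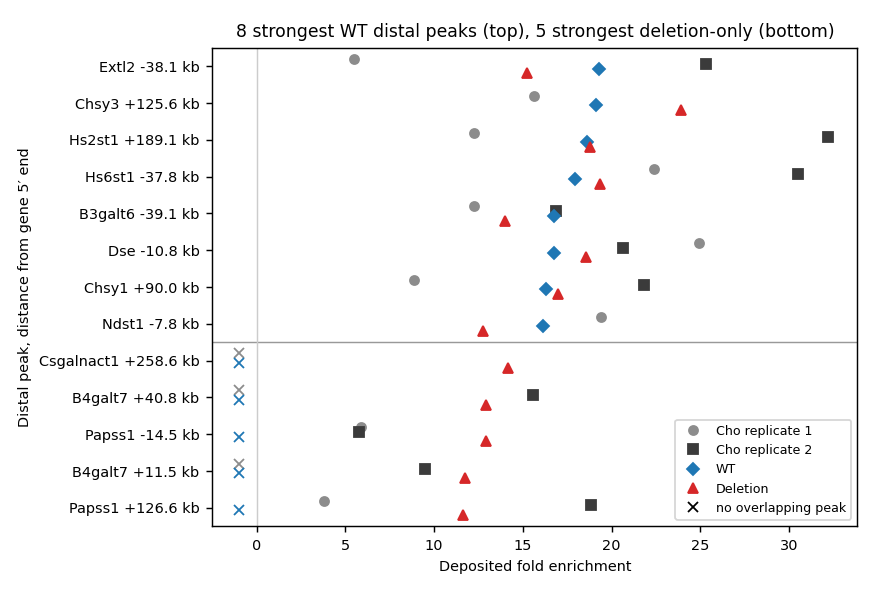
Deposited fold enrichment (x axis) in each list of the 8 distal peaks with the highest WT value (above the line) and the 5 with the highest deletion value and no WT peak (below the line), named by member and distance from its 5′ end (y axis). Crosses mean no overlapping peak, and Chsy3, Ndst1 and Csgalnact1 have no Cho replicate 2 symbol because they had no matched start. The 8 upper rows have WT values of 16.1 to 19.3, and 4 of the 5 lower rows have a Cho replicate 2 peak.

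Among the 395 shared distal peaks, the median log2 ratio of deletion to WT was 0.28, against 0.33 over all shared distal peaks. At least 2-fold higher in the deletion were 23 (5.82%, against 8.29% of all), and none was at least 2-fold lower (0.0912% of all). The 23 lay in 16 loci and had a median WT pileup of 7 tags. In 6 of them the summits were over 150 bp apart, as where 1 long deletion interval overlapped several WT peaks. The largest with close summits was a Chsy3 peak 263.6 kb from the start, with 4.41 in WT and 15.8 in the deletion. A peak 60.2 kb from the Has2 start had 7.35 and 19.1, and 10.6 in Cho replicate 1. A peak 31.0 kb into Ext2 had 9.67 and 19.4, on 15 and 45 tags, and its pileup ratio over background was 1.73 (exact interval 0.95 to 3.34). By pileup over background the median log2 ratio of the shared distal peaks was 0.01 in member loci and 0.04 over all, and the intervals of 4 of the 395 lay above 1 and of 2 below.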

How the data were processed

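ATAC-Seq was measured in 4 libraries of mouse rib chondrocytes, grouped by their labels. Per the submitters' processing notes and the study's methods, the authors trimmed reads with fastp, aligned them with Bowtie2 2.4.4, removed duplicates with Picard, for which the notes give 2.20.7, handled alignments with SAMtools 1.9 and called peaks with MACS2 2.2.4, keeping those that passed a q-value cut-off of 0.05. For each peak the deposited files list a fold enrichment, which MACS2 computes as the ratio of pileup plus 1 to background plus 1 at the summit. Next to it stand the deposited −log10 p-value and −log10 q-value, and a score made from the latter by the authors' peak caller. All of these move with depth. Each list was read as called on its own library, and 1 row was kept per interval, the highest. A whole summit pileup was solved from fold enrichment and p-value for 100% of peaks in each list, at a relative tolerance of 1e-04.

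Cho replicate 2 was read on GRCm38 with RefSeq genes, since its peaks match that build, and the other lists on NCBIM37 with GENCODE vM1 genes. No coordinates were converted. Of 19880 RefSeq promoter sequences of 300 bases, 19692 were found in NCBIM37 within 300 kb of their gene. Sequences are credited to RefSeq, GRCm38.p6. Overlaps needed 1 bp (bedtools 2.31.1). Intervals are exact binomial (Clopper-Pearson) at 95% and cover counting error only, since PCR copies are not independent molecules. A call between WT and the deletion was a 2-fold difference. Groups were not tested against each other, each genotype having 1 library.

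The members and lists were chosen with earlier results of these data known. Values in every library are given for members that lacked a promoter peak in a list, the 5 highest and 5 lowest by mean percentile, the 3 largest ratios in each direction, the 8 strongest WT distal peaks and the 5 strongest found in the deletion without WT. Other values named were picked after they were seen. Alternatives were other start definitions, windows of 500 bp and 2 kb, flanks of 20 and 100 kb, a −log10 q of at least 5, equal numbers of peaks (76242), an overlap of 50%, other measures and centring. The solver was tested on simulated data. Analyses used Python 3.11.15, pandas 2.3.3 and SciPy 1.17.1.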

Additional observations from a re-analysis of the deposited data

How the results depend on the processing

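No paired analysis was possible because each genotype had 1 library and no replicate number links the Cho libraries to them. Of 89 recomputed values for 22 results, 79 stayed within the tolerance set. It was 1.5 times for a count, the exact interval for a share and the SD between the replicates for the Cho level. For the promoter ratio it was the counting interval of the median member. These tolerances were wide, so the 79 say little about stability. With 34 to 36 of 40 members called per list, a count of member promoters could not rise by 1.5 times. The median promoter ratio stayed within tolerance while moving from -0.05 to 0.37. Distal counts within the tolerance still moved, in Cho replicate 1 from 341 to 502 with flanks of 100 kb and to 228 at a −log10 q of at least 5. By −log10 q-value, which grows with depth, 5 of 36 member promoters were at least 2-fold higher in the deletion, against 1491 of 12565 over all genes. Fold enrichment called no member. The median log2 ratio by −log10 q-value was 0.37 in members and 0.42 over all promoters. With equal numbers of peaks, member loci held 369 distal peaks in Cho replicate 2 and 342 in the deletion, and 80.2% of distal WT peaks overlapped a deletion peak (79.0% of all). An overlap of 50% of the WT peak gave 93.9%. In windows of 300 bases around the summit, 90 distal WT peaks of the member loci held ACAAAG (22.0%, against 20.8% of all). ACAATG was in 55 (13.4%, against 11.8%) and TTACGTAA in 2 (0.489%, exact interval 0.0593 to 1.76, against 0.0998%). Each of these genome values lay within the exact interval of its member value. The median Cho percentile was between 46.6 and 54.7 when either replicate was left out.

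Summits within 150 bp, an alternative chosen after seeing the data, left 17 shared distal peaks at least 2-fold higher in the deletion (4.57%, against 7.24% of all). Pileup over background gave 11 higher and 3 lower of 395, against 2212 and 1183 of 65824 over all. The sign of the promoter ratio changed for 8 of 36 members by pileup over background and for 17 by −log10 q-value, but for none by start definition. With 1 library per genotype, differences between WT and the deletion cannot be told apart from differences between libraries.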
